A study of Mus musculus with 60 samples.

Results

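A set of 10 genes that mark the choroid plexus epithelium was followed through RNA-Seq of the mouse dentate gyrus (DG): Ttr, Folr1, Kl, Clic6, Otx2, Aqp1, Slc4a5, Enpp2, Kcnj13 and Kcne2. They are 10 of the 46480 genes in the files and were taken by name as markers of this tissue, with no threshold on a measured value, though earlier results of these data were known when the list was chosen. Each gene symbol matched 1 gene identifier, and all 10 passed the limit on low counts (more than 10 counts in at least 2 libraries), which left 17040 genes to be tested.

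Male C57BL6J mice were weaned at postnatal day 22 and kept for 8 weeks in standard housing (SH) or an enriched environment (EE), and tissue was taken at 80 days of age. Total RNA came from punches of dorsal or ventral DG, which gave 4 groups of 5 libraries, SH and EE for each region. Each library was made from a pool of mice, and the dorsal and ventral libraries of one replicate number and housing came from the same pool. SH replicate 3 was left out of the groups in both regions, so that 18 libraries from 9 pools remained, and p-values measure the spread between these pools. Dorsal tissue was punched from coronal slices and ventral tissue from horizontal slices of the same brains, so that region and plane of slicing cannot be told apart.

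The choroid plexus is a sheet of epithelial cells over a vascular stroma that hangs into the brain ventricles, close to the hippocampal fimbria, and secretes cerebrospinal fluid. Its epithelium takes up water, ions and folate from blood and passes them on, and it makes carrier proteins that reach the brain through the fluid. It is not part of the dentate granule cell layer. In bulk tissue, fewer cells of a type and less RNA per cell cannot be told apart.

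The 10 genes fall into carriers and secreted or shed products (Ttr, Folr1, Kl and Enpp2), channels and transporters for water and ions (Aqp1, Slc4a5, Kcnj13, Kcne2 and Clic6) and a transcription factor (Otx2). All 10 were higher in ventral than in dorsal DG, by 1.93-fold for Kl to 19.8-fold for Folr1, with the remaining genes between 3.01-fold and 17.1-fold. By the quasi-likelihood test of edgeR, with p-values adjusted over all tested genes after Benjamini and Hochberg, 10 of 10 were called higher in ventral DG (adjusted p below 0.05 and a change of 20% or more), with adjusted p between 1.7e-09 and 1.04e-05, where 16.8% of all tested genes were called in that direction. Their median log2 fold change was 3.46, and that of all tested genes was 0.0046.

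**Figure D1:**
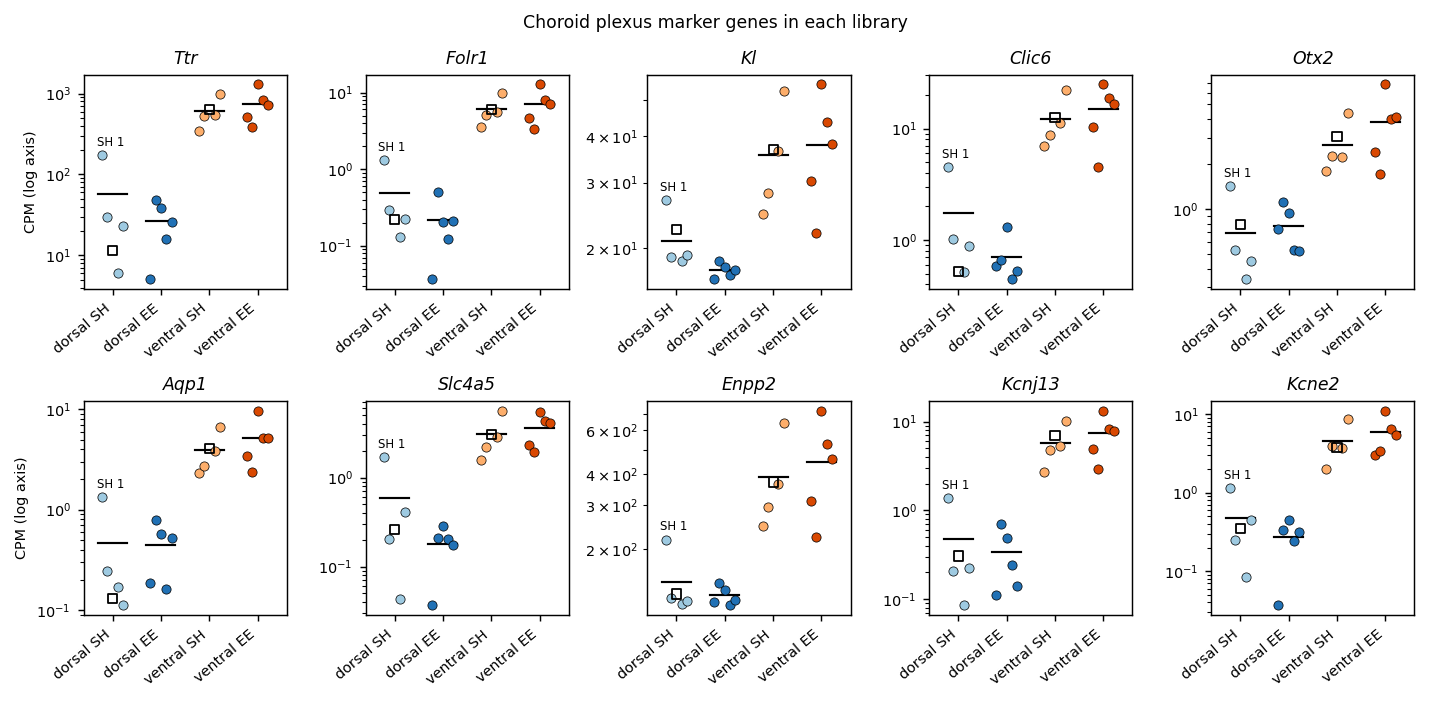
Normalized counts (CPM, log axis) of the 10 marker genes in each library. Filled points are the 18 libraries used, black bars are group means, open squares are SH replicate 3, and SH 1 marks dorsal SH replicate 1, which is the highest dorsal library in all 10 panels.

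Ttr encodes transthyretin, which carries thyroid hormone and the retinol-binding protein in cerebrospinal fluid. In CPM, which are counts scaled to the library total after TMM normalization, Ttr was at 173, 29.6, 6.11 and 22.8 in dorsal SH replicates 1, 2, 4 and 5, and at 5.12, 47.8, 38.7, 15.9 and 25.6 in the dorsal EE replicates. It was at 347, 527, 543 and 994 in ventral SH replicates 1, 2, 4 and 5, and at 510, 381, 1304, 838 and 728 in the ventral EE replicates. The lowest ventral library was above the highest dorsal one, and dorsal SH replicate 1 lay 3.62 times above the highest of the other 8 dorsal libraries. The log2 fold change was 4.10 (SE 0.47), and the 95% confidence interval of the ratio ran from 8.67 to 33.9. Without dorsal SH replicate 1 the fold rose from 17.1 to 29.5.

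Folr1 encodes folate receptor alpha, which brings folate from blood into cerebrospinal fluid. Its CPM was 1.33, 0.288, 0.128 and 0.223 in dorsal SH and 0.0368, 0.497, 0.203, 0.122 and 0.21 in dorsal EE, in the same order of replicates. In ventral SH it was 3.57, 5.15, 5.51 and 9.90, and in ventral EE 4.58, 3.31, 12.8, 8.03 and 7.11. The regions did not overlap. These levels rest on 1 to 37 counts in dorsal libraries and 73 to 327 in ventral ones, and the log2 fold change was 4.31 (SE 0.37). The rise was 30.4-fold without dorsal SH replicate 1, against 19.8-fold with it.

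Enpp2 encodes autotaxin, an enzyme that makes lysophosphatidic acid, and it is also made by oligodendrocytes. Its CPM was 218, 128, 120 and 124 in dorsal SH and 122, 146, 137, 119 and 125 in dorsal EE. In ventral SH it was 247, 294, 365 and 645, and in ventral EE 312, 223, 721, 530 and 459. Dorsal libraries other than SH replicate 1 lay within 119 to 146 CPM, so that Enpp2 had a steady dorsal level that Ttr and Folr1 did not have. The regions did not overlap, although the lowest ventral library (223 CPM) was only just above dorsal SH replicate 1 (218 CPM), and the log2 fold change was 1.59 (SE 0.19).

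Kl encodes Klotho, a co-receptor for fibroblast growth factor 23 that is also shed into cerebrospinal fluid and is made by hippocampal neurons as well. Its CPM was 26.9, 19.0, 18.4 and 19.2 in dorsal SH and 16.5, 18.4, 17.7, 16.9 and 17.4 in dorsal EE. In ventral SH it was 24.7, 28.2, 36.6 and 52.9, and in ventral EE 30.4, 22.0, 55.3, 43.7 and 38.1. Dorsal SH replicate 1 lay above the lowest ventral library, and in SH pool 1 the ventral library was at 0.917 times the dorsal one, while in the other 8 pools the ventral library was higher. The log2 fold change of Kl was 0.95 (SE 0.15).

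Slc4a5 encodes a sodium bicarbonate cotransporter of the epithelium. It was at 1.69, 0.206, 0.0427 and 0.41 CPM in dorsal SH and at 0.0368, 0.207, 0.285, 0.204 and 0.175 CPM in dorsal EE, which stands for 1 to 47 counts. In ventral SH it was at 1.59, 2.22, 2.88 and 5.66 CPM, and in ventral EE at 2.33, 1.95, 5.45, 4.37 and 4.15 CPM. As for Kl, dorsal SH replicate 1 reached above the lowest ventral library, which here was ventral SH replicate 1. The log2 fold change was 3.32 (SE 0.39).

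The other channel genes had low levels and did not overlap between regions. Kcnj13, which encodes the inwardly rectifying potassium channel Kir7.1, ranged from 0.0854 to 1.36 CPM in dorsal and from 2.72 to 13.3 CPM in ventral libraries (log2 fold change 4.01, SE 0.40). Kcne2, a regulatory subunit of potassium channels, ranged from 0.0368 to 1.15 CPM in dorsal and from 2.01 to 11.1 CPM in ventral libraries (log2 fold change 3.80, SE 0.39). Aqp1, the water channel of the apical membrane, ranged from 0.112 to 1.33 CPM in dorsal and from 2.33 to 9.72 CPM in ventral libraries (log2 fold change 3.27, SE 0.37). Clic6, of the intracellular chloride channel family, ranged from 0.449 to 4.52 CPM in dorsal and from 4.53 to 25.0 CPM in ventral libraries (log2 fold change 3.59, SE 0.37). For Clic6 the highest dorsal library, SH replicate 1, and the lowest ventral library were almost level.

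Otx2 encodes a homeodomain transcription factor that is needed for the choroid plexus to form and be maintained. It ranged from 0.342 to 1.43 CPM in dorsal and from 1.72 to 6.82 CPM in ventral libraries, which did not overlap, and its log2 fold change was 2.12 (SE 0.29). Since the members rose together, the promoter windows that RefSeq gives for them on GRCm38.p6 (250 bases before to 50 bases after a start) were searched for TAATCC, a sequence that homeodomain proteins of the Otx type bind, on both strands (GGATTA is its reverse complement). Windows were held for 6 of the 10 genes, and 1 of their 10 windows had a match, at 1 of 4 starts of Otx2 itself, while 7.06% of 32851 windows of the same length had one. The window with the match and those of Kcnj13 and the upstream start of Kcne2, the 2 genes with the largest regional difference among those with a window, are shown 5′ to 3′ on the gene's strand, with the match in capitals.
Otx2 (chr14:48665060-48665359, minus strand): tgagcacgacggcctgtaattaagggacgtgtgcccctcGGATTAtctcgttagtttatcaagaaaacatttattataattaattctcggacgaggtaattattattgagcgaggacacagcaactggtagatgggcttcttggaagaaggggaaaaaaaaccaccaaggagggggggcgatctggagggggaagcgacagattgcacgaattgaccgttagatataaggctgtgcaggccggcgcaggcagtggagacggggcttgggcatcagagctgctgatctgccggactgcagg
Kcnj13 (chr1:87394680-87394979, minus strand): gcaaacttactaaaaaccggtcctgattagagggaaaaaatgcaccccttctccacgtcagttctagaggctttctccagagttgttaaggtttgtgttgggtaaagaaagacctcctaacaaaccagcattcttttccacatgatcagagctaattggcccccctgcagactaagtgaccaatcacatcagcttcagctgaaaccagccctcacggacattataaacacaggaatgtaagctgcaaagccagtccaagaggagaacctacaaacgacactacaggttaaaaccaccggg
Kcne2 (chr16:92292139-92292438, plus strand): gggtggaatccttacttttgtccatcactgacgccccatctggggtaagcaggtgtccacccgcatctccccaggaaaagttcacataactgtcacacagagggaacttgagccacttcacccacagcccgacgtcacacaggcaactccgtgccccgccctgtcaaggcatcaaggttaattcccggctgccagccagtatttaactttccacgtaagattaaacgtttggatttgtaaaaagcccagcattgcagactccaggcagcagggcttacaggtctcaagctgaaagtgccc

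Counts were made by strand, and among genes that share their position with another this mattered for Kcnj13. Kcnj13 (chromosome 1, 87386363 to 87394729, minus strand, GRCm38) lies within Gigyf2 on the plus strand, which had a median of 138 CPM. On unstranded counts the regional log2 fold change of Kcnj13 was 2.84, against 4.01 by strand. Folr1 (chromosome 7, 101858331 to 101870788, minus strand) overlaps Anapc15 on the plus strand, with a median of 16.7 CPM. Otx2 (chromosome 14, 48657677 to 48673819, minus strand) overlaps Otx2os1, which had at most 9 counts in a library, and Enpp2 (chromosome 15, 54838901 to 54952892, minus strand) overlaps Gm26684, which had at most 5 counts. Clic6 (chromosome 16, 92485736 to 92541243, plus strand) is overlapped on its own strand by 2410124H12Rik, with at most 4 counts.

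Across the 10 genes, every ventral library was above every dorsal library for 8 (9.44% of all tested genes), and for 10 once dorsal SH replicate 1 was set aside (9.76%). The ventral library was higher than the dorsal one of its pool in 9 of 9 pools for 8 genes and in 8 of 9 pools for Kl and Slc4a5. In SH alone 10 of 10 genes were called higher in ventral DG, against 14.2% of tested genes, with a median log2 fold change of 2.88. In EE alone 10 of 10 were called, against 15.8%, with a median of 4.37. Without ventral SH replicate 5, Kl lost its call in SH (log2 fold change 0.51, adjusted p = 0.0521). SH replicate 3, which the groups do not include, also had all 10 genes higher in its ventral library, by 55.0-fold for Ttr (11.5 and 633 CPM) and 1.64-fold for Kl (22.5 and 36.9 CPM).

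**Figure D2:**
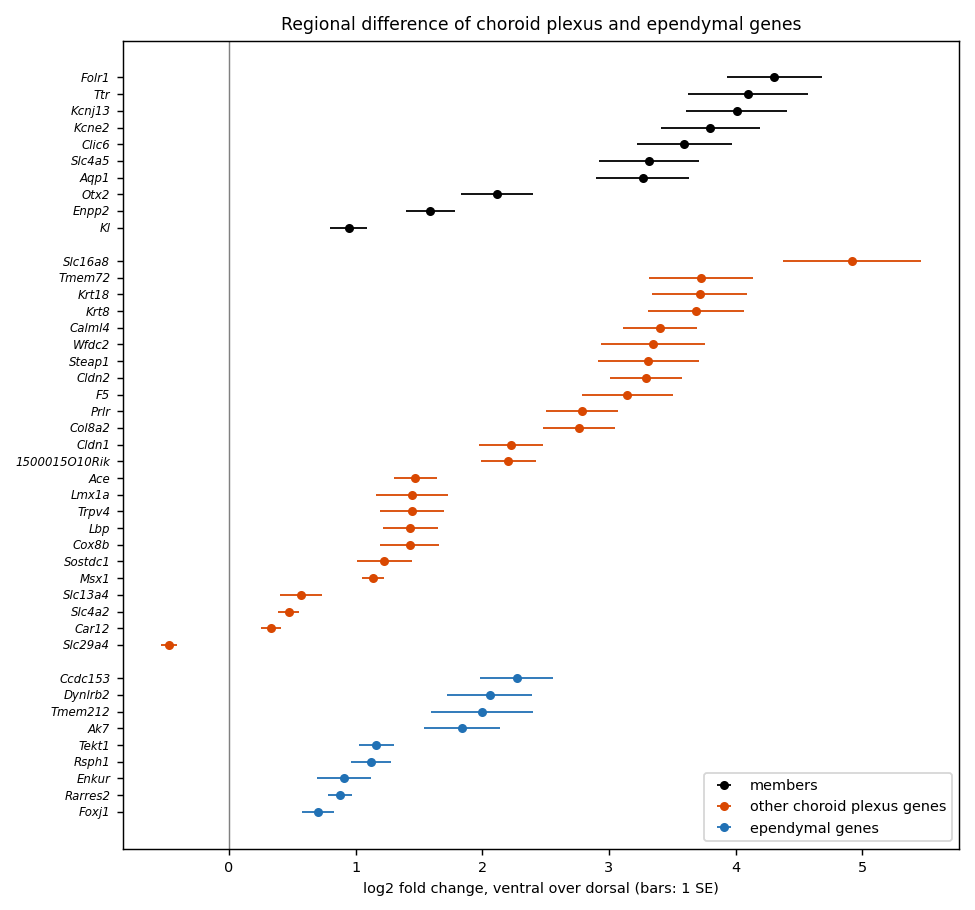
log2 fold change of ventral over dorsal DG for the 10 members, 24 other choroid plexus genes and 9 ependymal genes, with bars of 1 SE. All 10 members, 23 of the 24 other choroid plexus genes and all 9 ependymal genes lie to the right of 0, and Slc29a4 lies to the left.

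Levels of different genes can be compared only per transcript length, in TPM, the length-scaled share of a library's transcripts. In the 9 ventral libraries Ttr had a mean of 272 ± 134 TPM (SD, n = 9), followed by Enpp2 with 59.2 ± 28.05 TPM and Folr1 with 3.74 ± 2.01 TPM. Kl had 3.25 ± 1.28 TPM, Kcnj13 2.50 ± 1.36 TPM, Clic6 1.68 ± 0.918 TPM and Kcne2 1.47 ± 0.865 TPM. Otx2 had 0.837 ± 0.420 TPM, Aqp1 0.812 ± 0.445 TPM and Slc4a5 0.312 ± 0.139 TPM. Neighbours in this order from Folr1 to Aqp1 had means that differed by less than their joint SD. Within single libraries, however, Ttr was above Enpp2, Enpp2 above Folr1, Kcnj13 above Clic6, Kcne2 above Otx2 and Aqp1 above Slc4a5 in 9 of 9, whereas Otx2 was above Aqp1 in 5 of 9.

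Ttr made up a nearly fixed share of the summed TPM of the 10 genes in ventral libraries, from 76.5% to 80.3%, while that sum ranged from 123 to 610 TPM. In dorsal libraries other than SH replicate 1 the share was 9.94% to 45.1% of a sum of 23.5 to 39.7 TPM, with Enpp2 as the largest part. In dorsal SH replicate 1 the share was 66.0% of 145 TPM. Of all counts on genes, the 10 genes took 0.0622% to 0.217% in ventral libraries, 0.0144% to 0.0217% in those 8 dorsal libraries and 0.0429% in dorsal SH replicate 1.

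The ventral libraries themselves differed widely in these genes, and in nearly the same order for each. Between the highest and lowest ventral library the genes differed by 2.52-fold (Kl) to 5.53-fold (Kcne2). Ventral EE replicate 3 was the highest ventral library for 9 of 10 genes and ventral SH replicate 5 for the other, Slc4a5, and these libraries held the first and second place for all 10. Ventral SH replicate 1 and ventral EE replicate 2 were each lowest for 5 genes. The SD within ventral groups on the log2 CPM scale was 0.50 for Kl to 0.86 for Clic6, against a median of 0.13 over all tested genes, and all 10 genes were above the 95th percentile of that spread.

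Within the ventral libraries each of the other 9 genes was correlated with Ttr on the log2(TPM + 0.1) scale, with Pearson's r from 0.925 (Slc4a5) to 0.996 (Kcnj13) and Spearman's rho from 0.95 to 1. All 9 passed an exact two-sided permutation test over 9 libraries, with adjusted p over 18 relations of 2.48e-05 to 0.000857 for r and 4.96e-05 to 0.000705 for rho. Without the 2 libraries farthest from the median of Ttr (ventral EE replicate 2 and ventral SH replicate 1), r was 0.856 to 0.995. Both values of a library share its TPM total, of which short RNAs took a varying part, and on the log2 CPM scale, which does not use that total, all 9 relations passed as well. Ventral SH and EE libraries were mixed along these lines.

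Within the dorsal libraries the relations were looser. Pearson's r with Ttr was 0.580 (Kl) to 0.941 (Kcne2), and 7 of 9 relations passed the exact permutation test for r (adjusted p 0.000857 to 0.025) but 2 of 9, Kcnj13 and Kcne2, for rho (adjusted p = 0.00337 and 0.00521). The relations rested in large part on dorsal SH replicate 1 and dorsal EE replicate 1, the libraries with the most and the least Ttr. Without these 2 libraries r was 0.955 for Otx2, 0.745 for Kcne2 and 0.725 for Kcnj13, and it was 0.537 or lower for the others, down to -0.262 for Kl. Enpp2 then had an r of -0.0054.

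**Figure D3:**
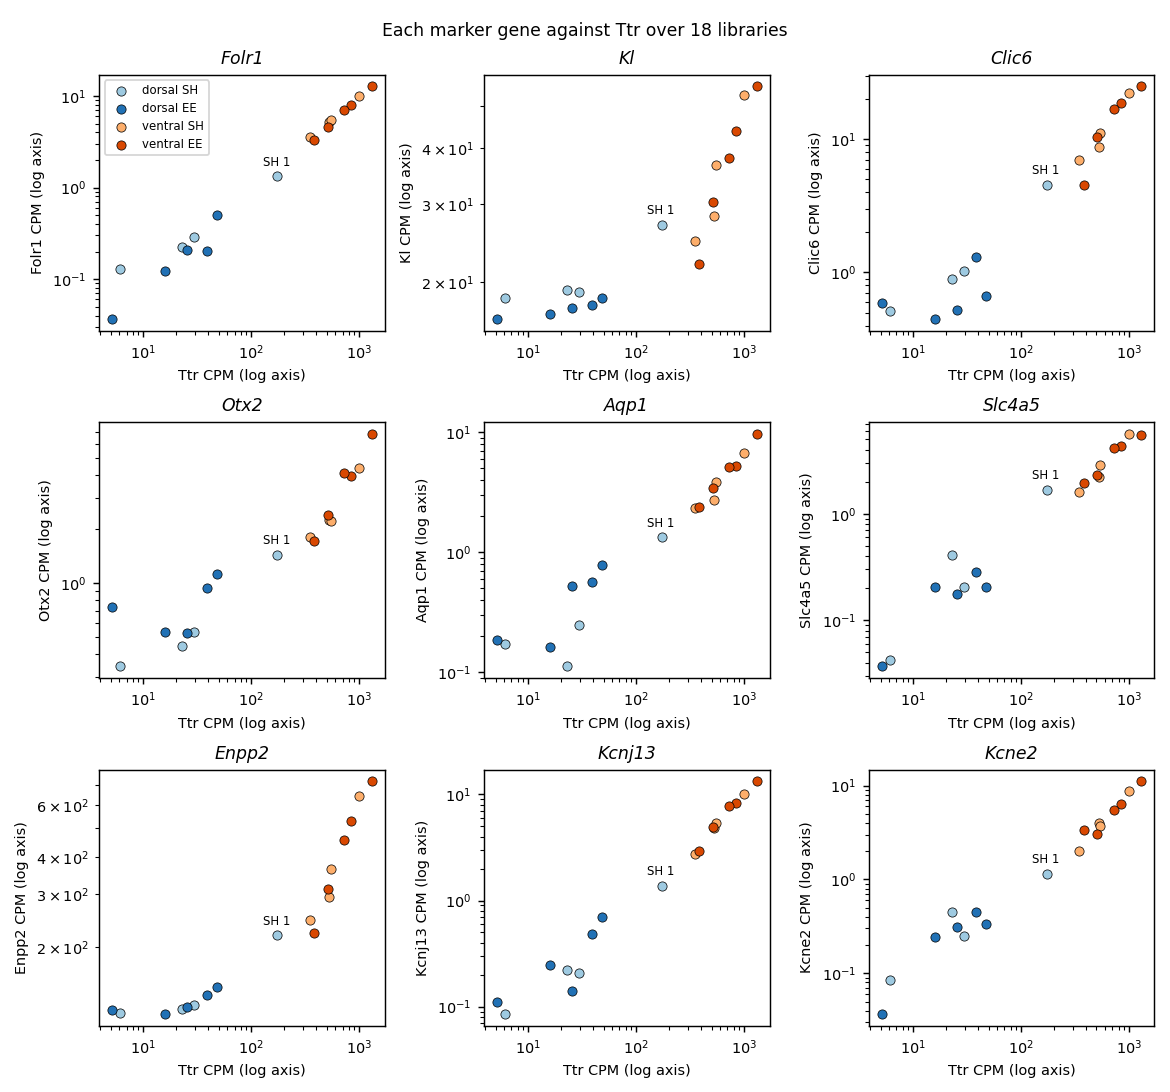
CPM of each of the other 9 genes against CPM of Ttr in the 18 libraries, both on log axes. Ventral libraries form one line in each panel, and Kl and Enpp2 are nearly level over dorsal libraries. Dorsal SH replicate 1 (SH 1) sits between the other dorsal and the ventral libraries in Ttr. In the Kl and Slc4a5 panels it reaches above the lowest ventral library.

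Dorsal SH replicate 1 was the highest of the 9 dorsal libraries for 10 of 10 genes, where it was the highest for 13.4% of all tested genes. It exceeded the highest of the other 8 by 1.28 times (Otx2) to 4.12 times (Slc4a5), and for 5 genes (Ttr, Folr1, Clic6, Slc4a5 and Kcne2) by more than 2 times, as it did for 0.088% of all tested genes. The ventral library of the same pool was the lowest or second lowest ventral library for all 10. Removing dorsal SH replicate 1 moved the regional fold change by more than 1.5 times for Ttr, Folr1, Aqp1 (9.63-fold to 15.9-fold), Slc4a5 (9.98-fold to 16.3-fold) and Kcnj13 (16.1-fold to 26.8-fold), and removing any other library moved none by that much.

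The genes' amounts above the dorsal base were also set against that of Ttr, with the median of the other 8 dorsal libraries as the base, a comparison chosen after the values had been seen. Per 1000 CPM of Ttr above its base, ventral libraries held 8.69 to 10.4 CPM of Folr1, 7.65 to 10.7 CPM of Kcnj13 and 5.36 to 8.75 CPM of Kcne2. Dorsal SH replicate 1 held 7.53 CPM of Folr1 (exact 95% Poisson interval of the count 4.89 to 10.9), 7.72 CPM of Kcnj13 (5.04 to 11.1) and 5.83 CPM of Kcne2 (3.39 to 9.003). For these 3 genes, and likewise for Clic6, Otx2 and Aqp1, its interval overlapped the ventral range. For the other 3 genes it lay above that range. Slc4a5 was at 9.95 CPM (6.95 to 13.7) against 4.004 to 5.63 CPM in ventral libraries, Enpp2 at 631 CPM (594 to 668) against 276 to 537 CPM, and Kl at 59.6 CPM (46.9 to 73.0) against 10.9 to 35.9 CPM. The intervals cover counting error only, and for Enpp2 and Kl the value depends on the base, which was 124 and 18.1 CPM.

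The effect of EE on these genes was asked within each region. None of the 10 was called in dorsal DG, where 0.634% of all tested genes were, and 1 of 10 (Slc4a5) had an unadjusted p under 0.05. None was called in ventral DG either, where 0.241% of all tested genes were, and none had an unadjusted p under 0.05. DESeq2 and limma on TPM also called none in either region. Adjusted p in edgeR's quasi-likelihood test was at least 0.563 in dorsal and 0.753 in ventral DG.

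In dorsal DG the log2 fold change of EE over SH ranged from -1.76 (Slc4a5, 95% confidence interval -3.50 to -0.02) to 0.10 (Otx2, -0.97 to 1.18), and was negative for 9 of 10 genes. Ttr was at 57.8 ± 77.3 CPM in dorsal SH (SD, n = 4) and 26.6 ± 17.1 CPM in dorsal EE (n = 5), a log2 fold change of -1.14 (SE 0.62). Without dorsal SH replicate 1 it was 0.44 (SE 0.54) for Ttr, and Aqp1, Enpp2, Kcnj13 and Kcne2 also turned positive (1.32, 0.07, 0.89 and 0.02). Slc4a5 was then at -0.34.

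In ventral DG the log2 fold change of EE over SH was positive for all 10 genes, from 0.09 (Kl) to 0.52 (Otx2), with 95% confidence intervals that all held 0. Ttr was at 603 ± 275 CPM in ventral SH (SD, n = 4) and 752 ± 357 CPM in ventral EE (n = 5), so that the difference was smaller than the spread within either group. The interval of the EE to SH ratio of Ttr ran from 0.543 to 2.87, and changes within it were not detectable here. Without ventral EE replicate 3, the library with the most of these genes, the sign turned for Folr1, Kl, Enpp2 and Kcne2. The difference between the ventral and dorsal EE effects was called for none of the 10 genes (adjusted p = 0.9999 in edgeR's quasi-likelihood test for each, unadjusted p under 0.05 for Slc4a5 alone), where 0.00587% of tested genes were called.

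**Figure D4:**
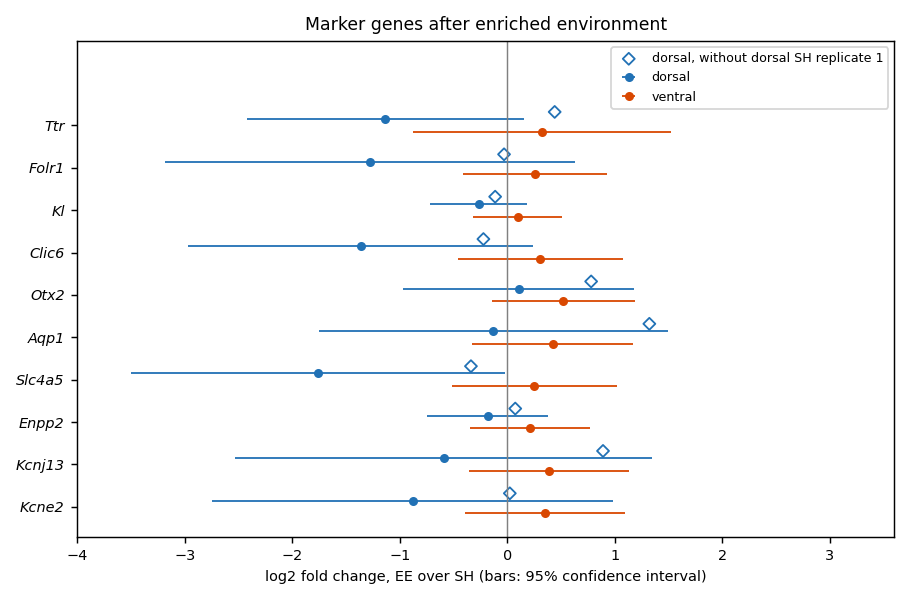
log2 fold change of EE over SH for each marker gene in dorsal (blue) and ventral (orange) DG, with bars of the 95% confidence interval. Open diamonds give the dorsal value without dorsal SH replicate 1, which lies to the right of the dorsal value for all 10 genes, and no gene was called in either region.

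A further 24 genes of the choroid plexus were followed in the same way. For this list and those below, 16.8% of all tested genes called higher in ventral DG is the share to compare with. For genes that fell, the comparison is 2713 of all 17040 tested genes called lower. Of the 24 choroid plexus genes, 23 rose in ventral DG and 1 fell, with a median log2 fold change of 2.22. Without dorsal SH replicate 1 again 23 rose and 1 fell, with a median of 2.42. The largest rises were in Slc16a8, Tmem72 and Krt18. Slc16a8, a lactate transporter of epithelia, had 0.024 ± 0.0595 CPM in dorsal and 0.776 ± 0.380 CPM in ventral libraries (SD, n = 9, log2 fold change 4.92, SE 0.55). Tmem72 had 0.492 and 5.76 CPM (3.72), and Krt18, a keratin of simple epithelia, 0.131 and 1.58 CPM (3.72). Slc16a8 rested on 0 to 39 counts, Tmem72 on 1 to 256 and Krt18 on 0 to 74. Outside dorsal SH replicate 1, no dorsal library exceeded 0.0368 CPM for Slc16a8 or 0.149 CPM for Krt18. Slc29a4, a monoamine transporter, was lower in ventral libraries, with 21.8 CPM against 30.2 CPM in dorsal ones (log2 fold change -0.47, adjusted p = 1.05e-06 in edgeR's quasi-likelihood test), and is named because it was the exception. In dorsal SH replicate 1, 16 of these 24 genes were higher than in the other 8 dorsal libraries, against 13.4% of all tested genes.

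Genes of the fluid-making machinery and partners of the members were also followed. Of 12 genes for ion and bicarbonate transport, 4 rose and 1 fell in ventral DG, with a median log2 fold change of 0.0028. Car14, a carbonic anhydrase, rose by 0.63 and Slc4a2, an anion exchanger, by 0.47 on the log2 scale. The lists overlap, as Slc4a2 and Car12, both among the 4 that rose, are also counted with the 24 choroid plexus genes, and Kcnq1, which was not called, is also a partner of the members. Of 14 partners of the members, 12 were tested (Fgf23 and Lpar2 had at most 4 and 13 counts), 3 rose and 2 fell. The folate transporter Slc46a1 rose by 0.41 and Rbp4, the plasma carrier that Ttr binds, fell by 0.46 on the log2 scale (1.78 to 1.30 CPM).

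Markers of other cells that border the ventricle or the plexus were read beside the members, and their part in the result was not tested. All 9 ependymal genes rose in ventral DG with a median log2 fold change of 1.16, among them Ccdc153 (2.27), Dynlrb2 (2.06) and Tmem212 (2.00), all genes of motile cilia or ciliated cells. Their summed level was 9.35 to 17.1 CPM in the 8 other dorsal libraries and 13.4 CPM in dorsal SH replicate 1. In ventral libraries it was 19.0 to 34.8 CPM. None of the 9 had its highest dorsal level in SH replicate 1. That library was the highest for 13.4% of all tested genes, so the count is near that share. Of 10 stromal and meningeal genes 4 rose, led by Dcn (10.0 to 24.2 CPM, log2 fold change 1.27), Igf2 (0.55) and Lum (0.51), with a median over the list of 0.06. Their sum was 62.7 to 91.5 CPM, 86.7 CPM and 88.7 to 122 CPM in the same 3 sets of libraries.

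Vascular and glial lists moved little. None of 6 endothelial and 8 oligodendrocyte genes was called between regions in edgeR's quasi-likelihood test with 18 libraries, and 2 oligodendrocyte genes were called lower in ventral DG with all 20 libraries. Of 6 mural genes 2 rose (Tagln by 0.34 and Acta2 by 0.30 on the log2 scale). Of 6 astrocyte, 6 microglial and 4 border macrophage genes 1 each rose (Slc1a3 by 0.27, Aif1 by 0.27 and Cd163 by 0.36). Slc1a3 and Aif1 were not called without dorsal SH replicate 1. Over all tested genes 16.8% were called higher in ventral DG, and 1 gene of 6 is near that share.

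The tissue was checked with granule neuron genes, all 5 of which were expressed in every library. Of these, 4 were lower in ventral DG, led by Dsp (198 to 71.5 CPM, log2 fold change -1.47), Prox1 (243 to 127 CPM, -0.94) and C1ql2 (217 to 116 CPM, -0.89). Over all 17040 tested genes, 2713 were called lower in ventral DG. The 5 genes summed to 1023 to 1197 CPM in the 8 other dorsal libraries and 1235 CPM in dorsal SH replicate 1. In ventral libraries the sum was 516 to 746 CPM. Dorsal SH replicate 1 was the highest dorsal library for 3 of the 5 genes. Of 4 tested genes of the habenula and thalamus, which lie near the dorsal punch, 2 were lower in ventral DG and the others were not called. Pou4f1 rested on 0 to 30 counts (0.42 to 0.03 CPM, log2 fold change -3.58, SE 0.69). Prkcd fell from 82.1 to 16.4 CPM (-2.32). The list summed to 78.9 to 104 CPM in the 8 other dorsal libraries and 112 CPM in dorsal SH replicate 1, the highest for 2 of the 4 genes. In ventral libraries it summed to 19.5 to 27.1 CPM. No gene of any list was called for EE in either region or for the difference between regions.

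**Figure D5:**
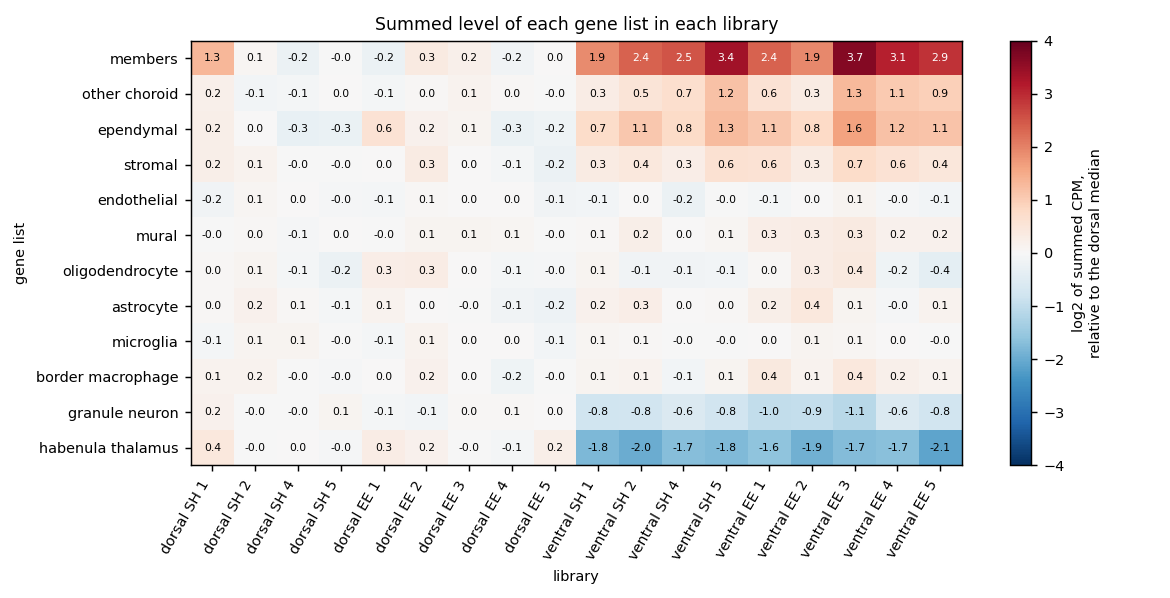
Summed CPM of each gene list in each of the 18 libraries, as log2 relative to the median of the 9 dorsal libraries. The members are at 1.9 to 3.7 in ventral libraries and at 1.3 in dorsal SH replicate 1. The endothelial, mural, oligodendrocyte, astrocyte and microglial lists stay within 0.413 of the dorsal median. In ventral EE replicate 3 the border macrophage list reaches 0.428 and the stromal list 0.739.

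The genes most like the members were sought by their correlation with the mean standardized log2 CPM of the members over the 9 ventral libraries, given as a description. Outside the list, the 10 highest were Sulf1 (r = 0.992), Abca4 (0.990), Ace (0.985), Prlr (0.984), Vat1l (0.983), Col8a1 (0.982), Map4k3 (0.978), F5 (0.978), Flii (0.978) and Mical3 (0.976). Ace, Prlr and F5 belong to the list of other choroid plexus genes. Sulf1, which encodes an extracellular heparan sulfate sulfatase, had 14.3 CPM in ventral and 4.92 CPM in dorsal libraries, and Col8a1, a short-chain collagen, had 4.56 and 0.875 CPM. Of the 10, 7 were called higher in ventral DG, Mical3 was called lower (log2 fold change -0.29, adjusted p = 9.73e-05 in edgeR's quasi-likelihood test), and Map4k3 and Flii were not called (log2 fold changes of 0.11 and 0.07).

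Among 281 other genes that were more than 2-fold higher in ventral DG and had a mean of at least 1 CPM there, 29 (10.3%) had an r above 0.9 with the members, and the median r was 0.197. Among all 14115 other genes at that level the share was 0.914% and the median r 0.0226.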

How the data were processed

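RNA-Seq libraries were strand-specific total RNA. Per the submitters' processing notes, the authors used Trim Galore 0.4.0, STAR 2.5.1b and RSEM 1.2.30 with mm10. The deposited counts are unnormalized fragments per gene, and column 4, for the strand of these libraries, was used. The deposited expected counts and TPM share fragments among isoforms. TPM is scaled by transcript length and total, of which short RNAs took a varying part, so CPM was used between libraries. The deposited FPKM was not used.

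Counts on genes were 22919364 to 28301861 per library, and fragments not counted on genes (32.6% to 40.9%) stayed out of library sizes. SH replicate 3 was left out because the study excluded an SH sample for Xist. Its identity was taken from the rule for these members and the study's sample sheet. No libraries held identical counts. Methylation samples were not analysed here.

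Libraries were scaled by TMM and tested by the quasi-likelihood method in edgeR 4.0.16 (R 4.3.3), with 4 groups in one model. The region result is the mean of the ventral minus dorsal differences in SH and EE. Standard errors were computed as the size of the log2 change over the root of F. limma 3.58.1 and DESeq2 1.42.0 were alternatives, with leave-one-out fits, other filters, scalings, counts and log2(TPM + 0.1) or log2(TPM + 1). Relations with Ttr were tested by exact permutation (numpy 2.4.6). Figures were drawn with matplotlib 3.10.9. The procedure was tested on simulated data. Symbols and coordinates came from Gencode (GRCm38).

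Dorsal and ventral libraries of a number come from the same pool of mice, and their deviations from group means correlated by -0.084 to 0.189. EE and SH libraries of one number correlated by 0.0815 to 0.175 (dorsal DG) and by 0.107 to 0.163 (ventral DG). These ranges overlapped, and EE and SH libraries held different mice. The median was 0.098 for libraries of the same pool. For EE and SH libraries of one number it was 0.118 in dorsal and 0.125 in ventral DG. The main fit used no pairing by number.

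Members and lists were chosen with earlier results of these data known. Named genes are all members, up to 3 called genes of each list with the largest regional change, the 10 genes most like the members (mean CPM of at least 1) and genes overlapping a member. Values of 2 list genes are not reported here, though the counts and medians of their lists include them.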

Additional observations from a re-analysis of the deposited data

Results flagged for a closer look

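In groups of 4 or 5 libraries, each gene's highest and lowest library was compared with its nearest neighbour by Dixon's 95% criterion, which chance exceeds in about 1 of 20 groups. Of 40 groups, 8 held a library that stood apart, and 7 of these were dorsal SH replicate 1, high in each case. It was at 173 CPM for Ttr, 1.33 CPM for Folr1, 26.9 CPM for Kl, 4.52 CPM for Clic6, 1.33 CPM for Aqp1, 218 CPM for Enpp2 and 1.36 CPM for Kcnj13. The nearest dorsal SH libraries were at 29.6, 0.288, 19.2, 1.03, 0.247, 128 and 0.223 CPM. These 7 are values of a single library and count as 1 event. The remaining one was dorsal EE replicate 3 for Clic6, at 1.30 CPM against 0.663 CPM in the next library.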

How the results depend on the processing

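The 10 members were called between regions under every alternative run for the mean of both housings. In SH alone 6 of 10 were called by limma on log2(TPM + 1), 7 on log2(TPM + 0.1), and 9 to 10 when each library was left out in turn. In EE alone 9 were called by limma on either scale. These TPM fits shifted the median log2 fold change of all genes between regions to -0.16 and -0.09, with 1030 genes higher and 3900 lower in ventral DG (log2(TPM + 0.1)) and 560 and 2783 (log2(TPM + 1)), against 2860 and 2713. The replicate block was the pool of mice for the regional contrasts and the interaction, and the replicate number for EE. EE and SH libraries of one number held different mice, so the block for EE is not a pairing by pool. With these blocks 10, 10 and 10 members were called between regions and 0 for EE or the interaction, as without them. Over all genes the block by number gave 107 higher and 65 lower for EE in dorsal DG (66 and 42 without it) and 69 and 18 in ventral DG (31 and 10). Across the alternatives these counts ran from 1 to 109 and 2 to 72 in dorsal DG and from 0 to 69 and 0 to 20 in ventral DG, lowest on TPM.

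No EE change of a member was called under any alternative, and signs turned for some. In dorsal DG, Otx2 was at -0.138 (replicate block), -0.119 (log2(TPM + 0.1)) and -0.0596 (log2(TPM + 1)), and Aqp1 at 0.074 with all 20 samples. In ventral DG, Folr1 and Kl were at -0.0339 and -0.0101 (replicate block), -0.158 and -0.0844 (log2(TPM + 0.1)), and -0.0829 and -0.0505 (log2(TPM + 1)). With each library left out in turn, dorsal values ran from -1.50 to 0.44 (Ttr), -0.10 to 0.78 (Otx2), -0.47 to 1.32 (Aqp1), -0.265 to 0.0734 (Enpp2), -1.04 to 0.89 (Kcnj13) and -1.20 to 0.0229 (Kcne2), and ventral ones from -0.0576 to 0.61 (Folr1), -0.082 to 0.35 (Kl), -0.0275 to 0.57 (Enpp2) and -0.0118 to 0.87 (Kcne2). The cause was not tested. Of the dorsal relations with Ttr, 1 to 7 passed when each library was left out, against 7 with all, with 1 left without dorsal SH replicate 1.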
